A study of Canis lupus familiaris with 4 samples.

Results

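Regions that methyl-DNA capture enriched over at least 1500 bp in the canine lymphoma line CLBL-1, and that were also captured in its doxorubicin-resistant derivative CLBL-1 8.0, were described here as the long shared regions. They were chosen by length in the CLBL-1 region list and by sharing at least 1 bp with a region of the CLBL-1 8.0 list, which gave 2795 of the 82247 CLBL-1 regions (3.40%, 95% Wilson interval 3.28 to 3.52). They made up 9.82% of the summed length of that list, or 5.20 Mb.

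CLBL-1 8.0 is a resistant derivative of CLBL-1 maintained with 8 µM doxorubicin, and CLBL-1 is the parent line, labelled as not chemoresistant and cultured without the drug. Both are cultures of 1 line that came from a lymph node with stage IV canine diffuse large B-cell lymphoma, so a pair of cultures, and not several animals, was compared. Both grew in RPMI medium with fetal bovine serum and antibiotics. Genomic DNA of each line was captured with a methyl-binding domain protein, and each line gave 1 library from a low salt eluate and 1 from a high salt eluate, 4 libraries in all. Each line has 1 deposited list that does not separate the eluates, so no value below has a replicate and no test between the lines was possible. The lists hold no expression values, so the labelled cell type was not checked against markers. Read depth is unknown, and a stretch without a listed region is not evidence of unmethylated DNA. The fold enrichment of a region is the authors' value and is used within its own list only. Positions are on CanFam3.1 as the lists give them, and the intervals on shares reflect how many regions were counted, not variation between cultures.

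In mammalian DNA, methylation sits mostly on the cytosine of CpG pairs, and a methyl-binding domain protein holds a fragment more firmly the more methylated CpGs it carries. CpG islands are stretches dense in CpG that are unmethylated at most promoters in normal cells, and shores are their flanks. Islands at developmental genes are known to gain methylation in many cancers, lymphomas included, and a long captured stretch usually spans many methylated CpGs.

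The long shared regions had a median length of 1759 bp (interquartile range 1613 to 2002) and reached 4652 bp. Of them, 2089 measured 1500 to 1999 bp, 545 measured 2000 to 2499 bp and 161 measured 2500 bp or more. Their fold in the CLBL-1 list ranged from 2.03 to 13.4 with a median of 5.53, against a median of 6.44 in the shorter shared CLBL-1 regions. Nearly every long CLBL-1 region was met by a CLBL-1 8.0 region, 2795 of 2812 (99.4%, 99.0 to 99.6), where 91.0% of all CLBL-1 regions and 90.7% (90.5 to 90.9) of the shorter ones were met. Sharing 1 bp is part of how the set was chosen and is easier for a longer region. With at least 50% of the bases required, 97.8% (97.2 to 98.3) of the long and 89.0% (88.8 to 89.2) of the shorter CLBL-1 regions were met. The remaining 17 long CLBL-1 regions had folds from 2.02 to 2.90, and 14 of them carried the island flag.

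Regions on either side of the length limit looked alike. The 63 long shared regions of 1500 to 1509 bp had a median fold of 6.83, and 56 of them (88.9%) met 1 CLBL-1 8.0 region, while 13 carried the island flag. The 59 shared CLBL-1 regions of 1490 to 1499 bp had a median fold of 6.93, and 48 (81.4%) met 1 CLBL-1 8.0 region, while 17 carried the island flag. The median share of bases inside CLBL-1 8.0 regions was 96.4% just inside the limit and 95.3% just outside it.

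Long shared regions lay almost entirely at CpG islands and their shores. The authors' island flag was set for 879 of them (31.4%, 29.8 to 33.2), against 12.5% (12.3 to 12.8) of the 72060 shorter shared CLBL-1 regions and 13.2% of all shared ones, a difference of 18.9 percentage points from the shorter ones (95% Newcombe interval 17.2 to 20.7). The shore flag without the island flag was set for 1752 (62.7%, 60.9 to 64.5), against 39.2% of the shorter and 40.0% of all shared regions. The remaining 164 (5.87%, 5.06 to 6.80) lay outside islands and shores, where 48.3% of the shorter regions lay. Long regions with the island flag were captured at lower fold than those with the shore flag, with medians of 3.97 and 6.23 in the CLBL-1 list, and those outside both had 5.76.

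The shore flag does not mean that a long region holds no island. Of 391 shore regions that CLBL-1 8.0 held in several pieces, 350 (89.5%) had a first piece with the shore flag, and 259 (66.2%, 61.4 to 70.7) had a later piece with the island flag. In most of these the flag of the whole region was that of its left piece. Contrasts between island and shore regions, above and below, are therefore contrasts of the flag and not of islands against their flanks. When a long region was counted as an island region if it or any CLBL-1 8.0 region there carried the flag, the number was 1284 (45.9%, 44.1 to 47.8).

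**Figure D1:**
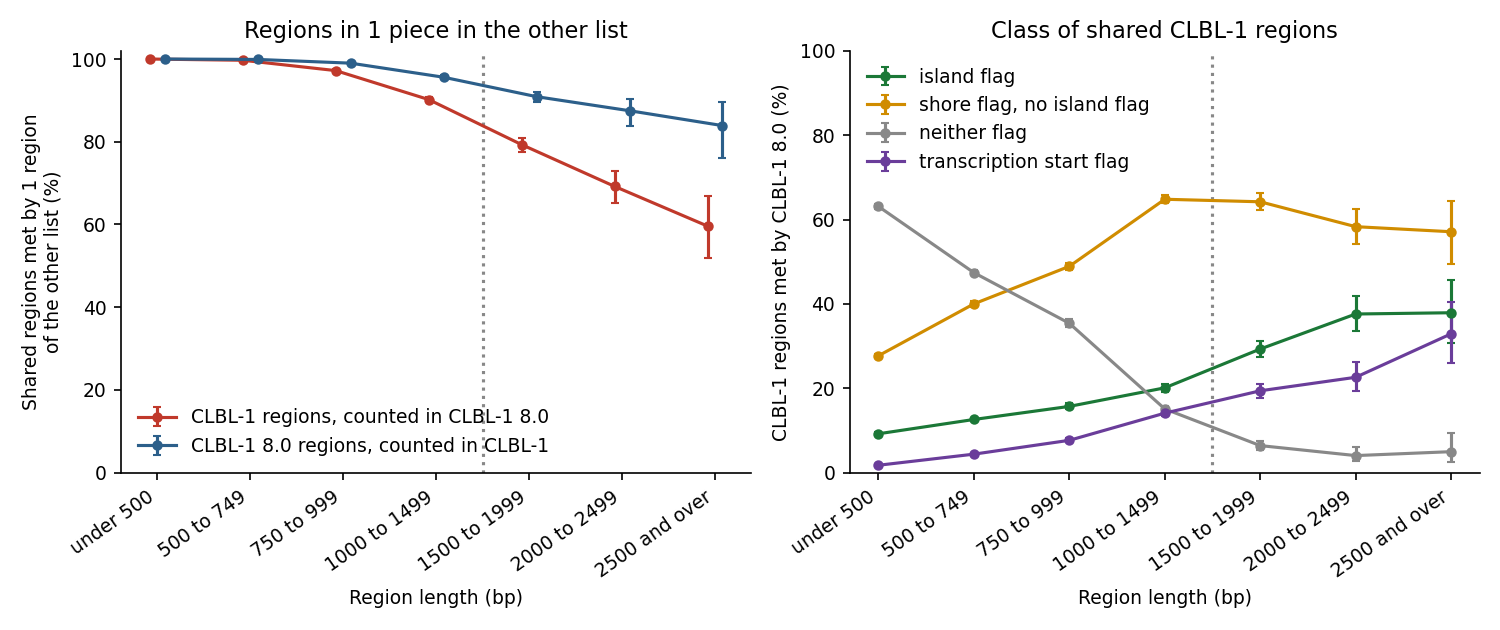
Left, share of shared regions that meet exactly 1 region of the other list (vertical axis, percent) by region length in bp, for CLBL-1 regions counted in CLBL-1 8.0 and for CLBL-1 8.0 regions counted in CLBL-1. Right, share of shared CLBL-1 regions with each CpG class or with the transcription start flag. Points are shares, bars are Wilson 95% intervals and the dotted line marks 1500 bp. At 2500 bp and over, 59.6% of CLBL-1 regions and 83.9% of CLBL-1 8.0 regions meet 1 region of the other list, and 37.9% of the CLBL-1 regions carry the island flag against 9.21% under 500 bp.

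The plot of class by length shows that these shares moved with length along the whole range rather than at the limit. The island flag was set for 29.3% (27.4 to 31.3) of shared CLBL-1 regions of 1500 to 1999 bp, for 37.6% (33.6 to 41.8) of those of 2000 to 2499 bp and for 37.9% (30.8 to 45.6) of those of 2500 bp or more. The shore share was highest at 1000 to 1499 bp, at 64.8%, and was 57.1% (49.4 to 64.5) in the longest group. The transcription start flag rose along the same groups, from 14.1% at 1000 to 1499 bp through 19.4% and 22.6% to 32.9% (26.1 to 40.5) at 2500 bp or more.

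By the authors' location class, introns held the most long shared regions, 882 (31.6%, 29.9 to 33.3), against 37.4% of the shorter and 37.2% of all shared regions. This class need not describe a whole region, as the next paragraph shows for start regions. A further 675 (24.2%) lay between genes, against 31.1% of the shorter. The classes upstream and coding sequence held 479 (17.1%) and 331 (11.8%), each above the shorter regions' 11.3% and 8.09%. The 186 downstream regions (6.65%) were within 0.743 percentage points of the shorter ones, with an interval from -0.140 to 1.74. The 3' untranslated and 5' untranslated classes held 134 (4.79%) and 108 (3.86%), against 3.56% and 2.64% of the shorter regions. Annotated enhancers were met by 90 (3.22%, 2.63 to 3.94), against 5.19% of the shorter and 5.12% of all shared regions.

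Location classes of start regions differed with the strand of the gene. The tabulated distances run from the left end of a region, and the definition of the classes is not stated. All 295 long regions with the transcription start flag at a gene on the plus strand were classed upstream. Of the 286 at a gene on the minus strand, 196 (68.5%, 62.9 to 73.6) were classed as intron and 10 as upstream. The shorter shared regions showed the same split, with 66.4% of minus-strand start regions classed as intron. A class read at the left end of a region would give this split, but that was not tested. The 196 start regions are part of the 882 long regions classed as intron.

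Transcription starts lay in long shared regions more often than in shorter ones. The authors' start flag was set for 581 (20.8%, 19.3 to 22.3), against 4.93% (4.77 to 5.09) of the shorter and 5.52% of all shared regions, although a longer region covers more bases and so more starts. The promoter flag was set for 725 (25.9%), against 12.1% of the shorter and 12.6% of all shared regions. Placed by the tabulated distance, 561 long regions, at 561 genes, held the start itself. In these the region reached a median of 710 bp upstream and 1132 bp downstream of the start, and 372 (66.3%, 62.3 to 70.1) held more bases downstream than upstream. Of these starts, 528 (94.1%, 91.9 to 95.8) also lay inside a CLBL-1 8.0 region, close to the 93.7% of all base positions of these long regions that did so.

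The CLBL-1 8.0 list held most long regions as a single region. Exactly 1 CLBL-1 8.0 region met 2130 of the 2795 (76.2%, 74.6 to 77.7), 2 met 631 (22.6%), 3 met 31 (1.11%) and 4 met 3 (0.107%). The 665 regions in several pieces were 23.8% (22.3 to 25.4) of the long shared regions, against 2.47% of all shared CLBL-1 regions, most of which are too short to meet several. The several-piece regions were longer, with a median of 1847 bp against 1737 bp for those in 1 piece, and their median fold in CLBL-1 was 4.98 against 5.73.

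Counted the other way, splitting was less frequent. Of the 2456 CLBL-1 8.0 regions of at least 1500 bp that met a CLBL-1 region, 245 (9.98%, 8.85 to 11.2) met several CLBL-1 regions, against 0.996% of all shared CLBL-1 8.0 regions. The share in 1 piece was 76.2% for the long CLBL-1 regions in CLBL-1 8.0 and 90.0% for the long CLBL-1 8.0 regions in CLBL-1, a difference of -13.8 percentage points (-15.8 to -11.8). At 1500 to 1999 bp, the share in 1 piece was 79.3% for CLBL-1 regions in CLBL-1 8.0 and 90.9% for CLBL-1 8.0 regions in CLBL-1. At 2000 to 2499 bp it was 69.2% for CLBL-1 regions in CLBL-1 8.0 and 87.5% for CLBL-1 8.0 regions in CLBL-1. At 2500 bp or more it was 59.6% for the CLBL-1 regions and 83.9% for the CLBL-1 8.0 regions. The counting intervals were apart in each of these groups. Whether depth or the calling of regions differed between the lists and plays a part was not tested.

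Location and CpG class changed the share in 1 piece only moderately. It was 74.5% (71.5 to 77.3) with the island flag, 77.7% (75.7 to 79.6) with the shore flag and 69.5% (62.1 to 76.0) outside both. Coding sequence had the highest share among location classes, 82.8% (78.3 to 86.5), and downstream regions the lowest, 71.0% (64.1 to 77.0). In 4 groups of nearly equal size by CLBL-1 fold, from low to high, the share was 69.5%, 74.8%, 79.8% and 80.7%, while the share with the island flag was 62.2%, 32.2%, 18.8% and 12.6%. Fold and island class therefore moved together and their parts were not separated.

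The breaks between pieces were short. The 702 gaps had a median of 225 bp (interquartile range 185 to 278) and ranged from 150 to 1311 bp. The smallest gap between any neighbours was 150 bp in the CLBL-1 8.0 list and 151 bp in the CLBL-1 list, so no closer break can appear. Of the gaps, 264 (37.6%) measured at most 200 bp, 570 (81.2%) at most 300 bp and 665 (94.7%) at most 500 bp. The 1367 pieces had a median length of 740 bp and a median fold of 3.57, against 5.06 for all regions of the CLBL-1 8.0 list. With CLBL-1 8.0 regions at most 200 bp apart joined, 84.8% of the long regions were in 1 piece, and with those at most 500 bp apart joined, 98.7% were.

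Whether in 1 piece or more, CLBL-1 8.0 regions covered nearly the whole of most long regions. The median share of bases covered was 95.6% (interquartile range 85.6 to 98.9), 2750 regions (98.4%) had at least 50% of their bases covered, and 406 (14.5%) lay wholly inside CLBL-1 8.0 regions. From the first to the last CLBL-1 8.0 base, the span was 0.988 times the CLBL-1 length in the median region (interquartile range 0.947 to 1.02). Over the shared 1-piece regions, the CLBL-1 8.0 counterpart had a median length of 1718 bp, 1757 of 2130 (82.5%) reached 1500 bp, and 1364 (64.0%, 62.0 to 66.0) had both edges within 100 bp of the CLBL-1 edges. The annotation of the counterpart was the same in most cases, with the same CpG class in 1911 (89.7%), the same location class in 1957 (91.9%) and the same gene, or none, in 2056 (96.5%). Because length in CLBL-1 chose the regions, the length comparison is a description.

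**Figure D2:**
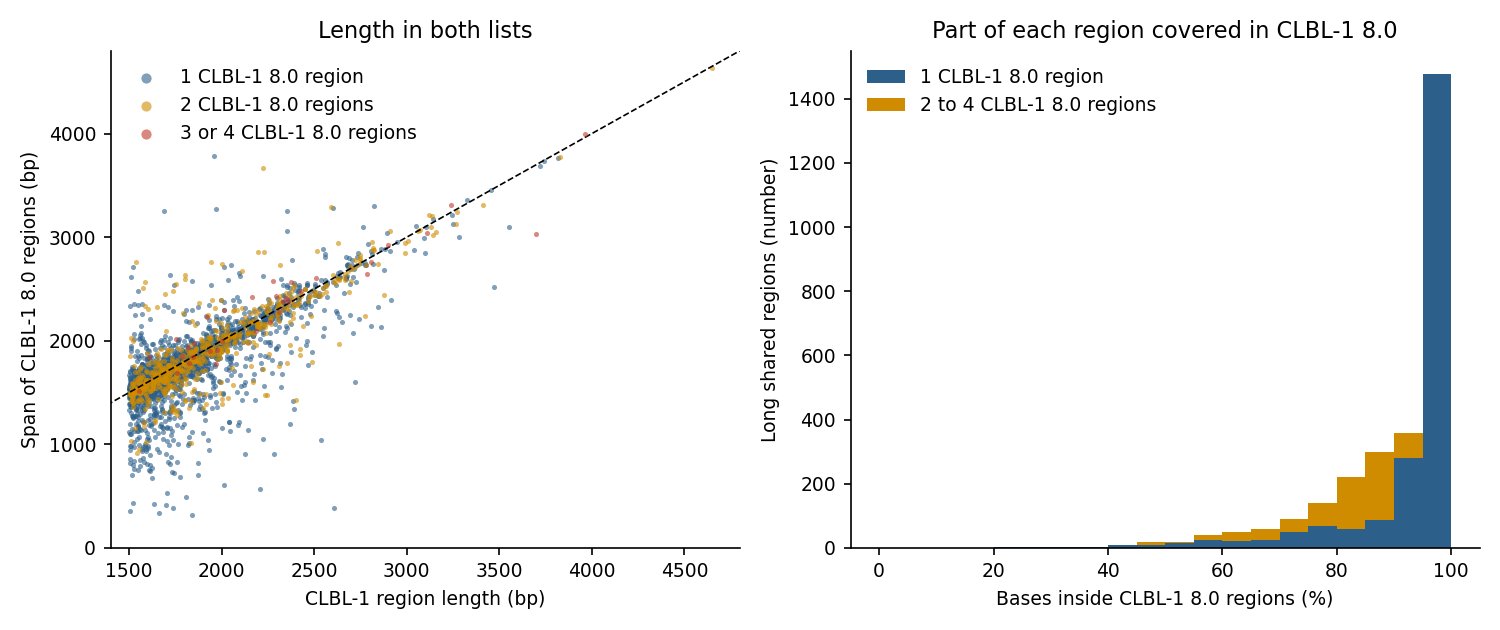
Left, each point is 1 long shared region, with its CLBL-1 length on the horizontal axis and the span from the first to the last CLBL-1 8.0 base on the vertical axis (both bp); the dashed line marks equal length. Right, number of long shared regions by percent of bases inside CLBL-1 8.0 regions, with regions met by 1 CLBL-1 8.0 region and those met by 2 to 4 stacked. Most points follow the line, and 1832 of 2795 regions have at least 90% of their bases covered.

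The longest shared regions were of low fold and mostly at islands. The longest, on chromosome 4 at 10461978 to 10466630, lay between genes, carried the island flag and had a fold of 2.38 in CLBL-1. CLBL-1 8.0 held it as pieces of 3211 and 1201 bp with a gap of 226 bp, and 94.8% of it was covered. The next, on chromosome 2 at 30442194 to 30446155 (3961 bp), was also intergenic and was held in 4 pieces that covered 82.5%. CYP1B1, a cytochrome P450 enzyme gene that acts on steroids and polycyclic compounds, had an island region of 3826 bp over its start on chromosome 17 (30275975 to 30279801), held as pieces of 515 and 3009 bp. BTBD2 had a 3815 bp island region in its 3' untranslated class on chromosome 20 (57004243 to 57008058), held by CLBL-1 8.0 as 1 region of 3765 bp. PANX2, a pannexin channel gene, had a 3457 bp shore region on chromosome 10 (17053118 to 17056575), held by CLBL-1 8.0 as 1 region of 3465 bp. An intergenic region of 3696 bp on chromosome 15 (5750274 to 5753970) stood apart from these, since 3 CLBL-1 8.0 pieces covered only 59.2% of it. The uncharacterised genes LOC102152165 and LOC102156099 and the gene KIAA0319L completed the 10 longest with IRF4, and each of the 4 had 1 CLBL-1 8.0 region, which covered 98.4%, 87.2%, 70.7% and 99.2%. The CLBL-1 8.0 list named the region at KIAA0319L for ZMYM4.

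**Figure D3:**
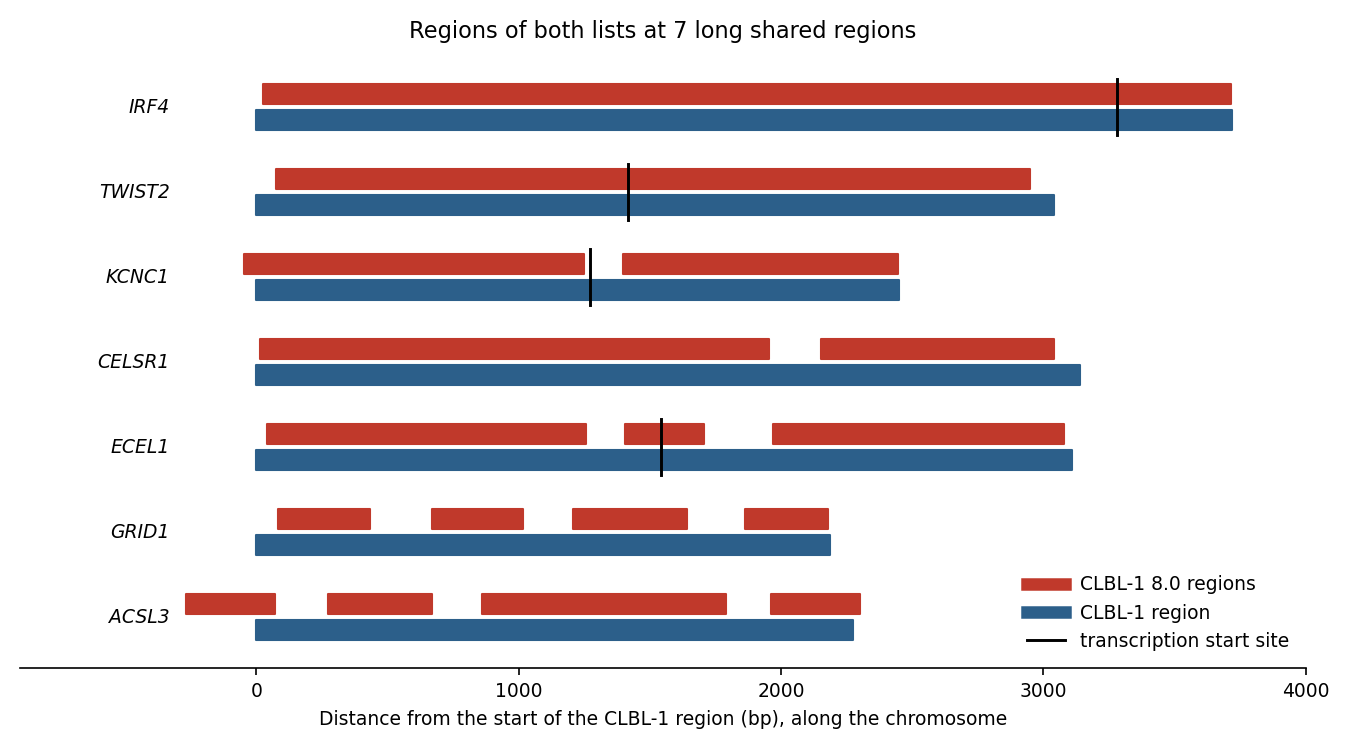
CLBL-1 8.0 regions (upper bars) and the CLBL-1 region (lower bar) at 7 long shared regions, named by the gene the list gives them. The horizontal axis is the distance in bp from the start of the CLBL-1 region and vertical lines are transcription start sites that lie in the region. IRF4 and TWIST2 are in 1 piece, KCNC1 and CELSR1 in 2, ECEL1 in 3, and GRID1 and ACSL3 in 4.

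Over the 34 regions in 3 or 4 pieces, the span of the pieces was 0.821 to 1.16 times the CLBL-1 length, with a median of 1.01. The 3 regions in 4 pieces and the 7 longest of those in 3 are named here. ACSL3, an acyl-CoA synthetase gene, had a 2276 bp shore region downstream of the gene on chromosome 37 (28933484 to 28935760), with 4 CLBL-1 8.0 pieces of 341, 398, 933 and 337 bp whose span was 1.13 times its length. GRID1, a glutamate receptor subunit gene, had a 2188 bp intronic region on chromosome 4 (33826261 to 33828449), with 4 pieces of 354, 347, 435 and 318 bp that covered 66.5%. ECEL1, a neuronal peptidase gene, had a 3110 bp region on chromosome 25 (44126506 to 44129616) whose start site lay in the middle one of 3 pieces, 300 bp long. LYPD1 (2900 bp, over its start), PTDSS1, a phosphatidylserine synthase gene (2785 bp), and BEGAIN (2508 bp) had 3 pieces each, which covered 85.4%, 79.4% and 72.8%. The CLBL-1 8.0 list named the first piece at LYPD1 for NCKAP5. Intergenic regions on chromosomes 18, 33, 15 and 2 made up the rest of these 10, whose pieces had folds of up to 5.37 in the CLBL-1 8.0 list, at LYPD1.

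Gaps fell on a transcription start in few regions. Of 129 gaps in regions with a start site, 19 (14.7%, 9.64 to 21.9) held the start, and gaps made up 12.5% of the bases between the first and last pieces there. A further 14 starts lay beyond the first or last piece. KCNC1, a voltage-gated potassium channel gene, is an example of a start between pieces. Its 2448 bp shore region on chromosome 21 (40272096 to 40274544) held the start 1270 bp from its left end, and the CLBL-1 8.0 pieces of 1297 and 1046 bp left a gap of 150 bp that held it.

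The least covered regions met CLBL-1 8.0 only at an edge or in a short part. MAMLD1 on chromosome X (118655561 to 118657173) had 2.11% of its 1612 bp covered, by a 739 bp CLBL-1 8.0 region that continued past its right end. An intergenic island region on chromosome 1 (121737740 to 121740348) had 14.6% covered, and SCRIB, a cell polarity gene, 17.3%. P4HB, TNS3, TGFA, ADARB1 and IGSF9 had 22.2%, 23.8%, 24.5%, 25.6% and 26.2% covered. Of the 10 least covered regions, 9 had a CLBL-1 fold from 2.10 to 2.76, near the low end of the list, and IGSF9 had 5.81.

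The 10 regions of highest fold were mostly at shores over transcription starts, and 9 of them measured 1502 to 1726 bp. SPSB1, an adaptor of ubiquitin ligase complexes, had 13.4 in the CLBL-1 list for 1645 bp on chromosome 5 (62640244 to 62641889), and CLBL-1 8.0 held 1 region of 1696 bp with 8.93 in its own list. PLPP3, a lipid phosphatase gene, had 13.3 for 1503 bp on the same chromosome (52924127 to 52925630) and 12.7 in the CLBL-1 8.0 list. SHANK3, a postsynaptic scaffold gene, had 12.2 over its start on chromosome 10 (16664035 to 16665551), where its counterpart of 1499 bp had 6.74 in the CLBL-1 8.0 list. RDH8, a photoreceptor retinol dehydrogenase gene, had 12.9 in the CLBL-1 list. Placed by the tabulated distance, that region did not hold the RDH8 start, and the CLBL-1 8.0 list named its counterpart for COL5A3. The kinase gene CDC42BPB and LRRC30 were the last of the 10 highest. Of the 10 highest, 9 were held in 1 piece. An intergenic region outside islands on chromosome 22 (63468 to 65542), with a fold of 12.5, was the exception and the longest of the 10 at 2074 bp, with pieces of 450 and 716 bp and a gap of 907 bp.

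Long shared regions were most dense toward the right-hand ends of the chromosomes, as the plot along the chromosome shows. Ends were taken as the last listed region of either list. The last 5 Mb held 904 (32.3%, 30.6 to 34.1), against 19.7% (19.4 to 20.0) of the shorter shared regions, a difference of 12.6 percentage points (10.9 to 14.4), and the last 2 Mb held 21.1% against 10.6%. The first 5 Mb held 391 long regions, a share 0.946 percentage points from that of the shorter regions, with an interval from -0.315 to 2.30. The excess in the last 5 Mb was present within each CpG class, at 42.3% against 37.1% of island regions, 27.7% against 23.2% of shore regions and 28.7% against 12.4% of the others. Long regions in the last 5 Mb had a lower median fold than those elsewhere, 4.44 against 6.08, carried the island flag more often, 41.2% against 26.8%, and were in 1 piece in 73.9% against 77.3%.

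**Figure D4:**
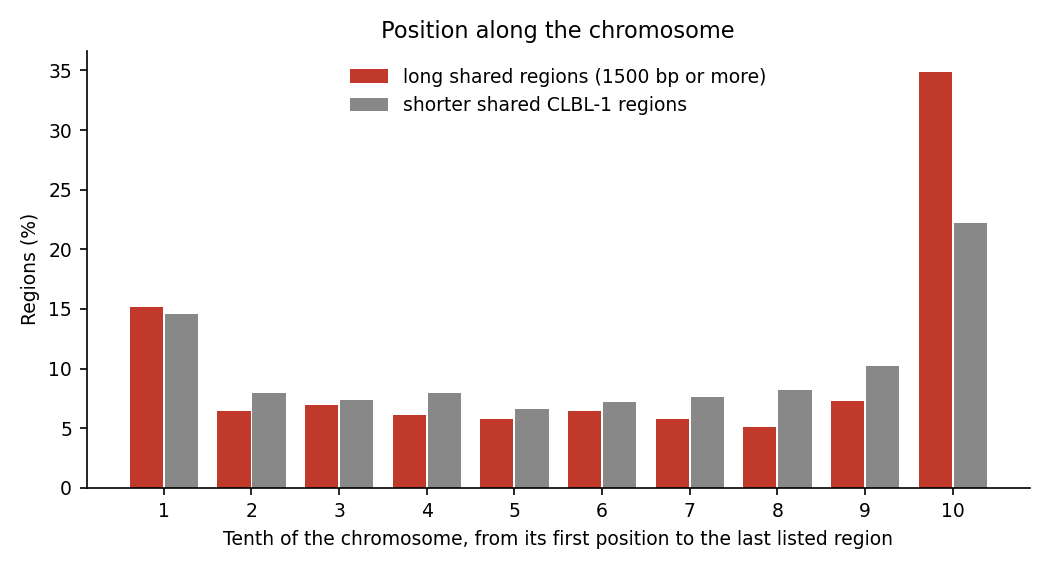
Share (vertical axis, percent) of long shared regions (left bars) and of shorter shared CLBL-1 regions (right bars) in each of 10 equal parts of the chromosome, all chromosomes together. The last of the 10 holds 34.9% of the long and 22.2% of the shorter regions, and the first 15.2% and 14.6%.

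All 39 nuclear chromosomes of the lists held long shared regions. Chromosome 31 had the highest density, 84 regions or 2.11 per Mb, followed by chromosome 10 with 1.98 per Mb. Chromosome 32 had the lowest, 17 regions or 0.438 per Mb, and chromosome X had 86 or 0.694 per Mb. The share in 1 piece ranged from 58.7% on chromosome 26, with 46 regions, to 89.2% on chromosome 35, with 37. Long regions stood alone in most cases, since 179 neighbouring pairs lay at most 10 kb apart and 7 at most 2 kb apart.

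A gene was named for 2120 long shared regions (75.8%), 1789 genes in all, which is 10.3% of the 17368 genes named in the CLBL-1 list. Of these genes, 1590 had 1 long region and 199 had several. Among those whose symbol matched the dog RefSeq annotation, 88.7% of 1596 were protein coding, against 77.3% of 15079 for the whole list. Long genes with many regions led by number. CSMD2 and CSMD1, which encode large CUB and Sushi domain proteins of the brain, had 14 of 105 and 11 of 148 CLBL-1 regions in the set, and all 14 of CSMD2 were intronic. PCBP3, an RNA-binding protein gene, had 9 of 52, SLIT2, an axon guidance ligand gene, 8 of 45, and FBXL7, an F-box gene, 8 of 48. All 9 regions of PCBP3 and all 8 of SLIT2 were in 1 CLBL-1 8.0 piece, against 6 of 11 in CSMD1 and 10 of 14 in CSMD2. DLGAP2 and GRID1, genes of the synapse, had 8 and 7, the zinc finger gene ZNF536 and the cadherin gene CDH4 had 7 each, and CADPS2, a vesicle release gene, had 6 regions of up to 3063 bp.

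The gene lists here and below were chosen with earlier results of these data known, so their shares are descriptions. Developmental transcription factor genes were among those most often holding a long shared region. Of 71 genes of the SOX, FOX, TBX, GATA and basic helix-loop-helix families, with a few PAX genes, 25 (35.2%, 25.1 to 46.8) had one, and of a list of 110 homeobox genes outside the HOX clusters 36 (32.7%, 24.7 to 41.9), where all genes of the CLBL-1 list gave 10.3%. The homeobox list also counts SIM1, with 1 long region, which is a basic helix-loop-helix factor and not a homeobox gene. Counted per region, 10.8% of the CLBL-1 regions of the SOX to helix-loop-helix genes and 7.42% of those of the other homeobox genes were long shared regions, against 3.73% for all genes. TWIST2, a mesenchymal basic helix-loop-helix factor, had 3041 bp over its start on chromosome 25 (49164035 to 49167076), and CLBL-1 8.0 held 1 region of 2874 bp. OLIG1, an oligodendrocyte lineage factor, had 2714 bp over its start (chromosome 31, 27718420 to 27721134), and the gene T, brachyury of the early mesoderm, 2674 bp (chromosome 1, 54191421 to 54194095). Both were in 1 piece with 99.2% and 97.9% covered. TLX2 and TLX3, homeobox genes of neural crest and spinal cord development, had island regions of 2754 and 2525 bp over their starts, in 1 CLBL-1 8.0 region of 2749 and 2456 bp. PITX1, which specifies the hindlimb, had 2494 bp upstream of its start in pieces of 781 and 1504 bp. SOX1, a neural progenitor factor, had 46.2% of 1513 bp covered and TBX2 53.2% of 2141 bp, the lowest in these families. Of the 29 regions of the SOX to helix-loop-helix genes, 25 were in 1 piece, and of the 40 of the other homeobox genes, 30.

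The HOX clusters gave a lower share. In them 3 of 37 HOX genes (8.11%, 2.80 to 21.3) had a long shared region, near the 10.3% of all genes, and 4 of their 109 CLBL-1 regions (3.67%) were in the set. HOXA13, which patterns the limb ends and genital tract, had 2 of them, of 2337 bp downstream of the gene and 1525 bp upstream (chromosome 14). HOXA10 and HOXC13 had 1667 and 1592 bp over their starts. All 4 were in 1 piece with 95.2% to 98.4% covered.

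**Figure D5:**
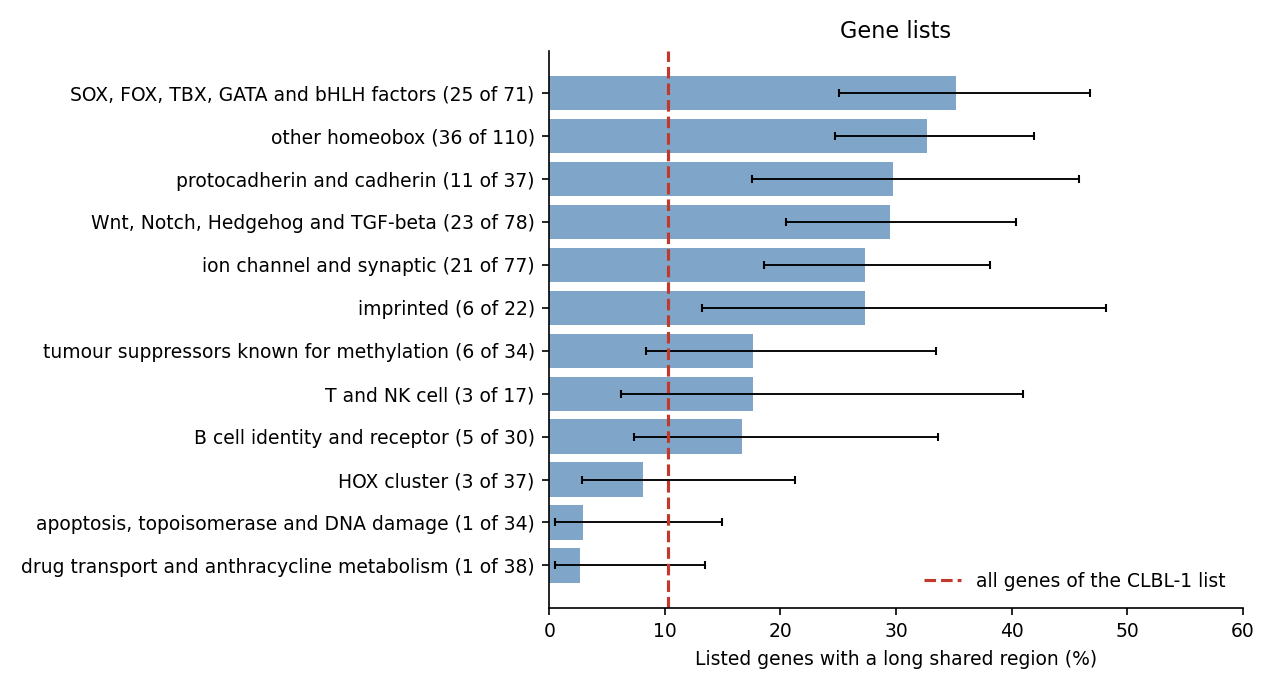
Share of genes with a long shared region (horizontal axis, percent) in 12 gene lists, with the number of genes beside each name. Bars are shares, lines are Wilson 95% intervals and the dashed line is the share of all genes named in the CLBL-1 list, 10.3%. The lists were chosen with earlier results of these data known. The SOX to helix-loop-helix list and the list of other homeobox genes lie at the top. The HOX clusters, with 3 of 37 genes, lie below the dashed line, and drug transport lies at the bottom with 1 of 38 genes.

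Counted per gene, signalling, adhesion and neuronal genes also held long shared regions more often than all genes. Of 78 Wnt, Notch, Hedgehog and TGF-beta genes 23 (29.5%, 20.5 to 40.4) had one. IHH, a Hedgehog ligand of cartilage growth, had 2672 bp wholly covered by 1 CLBL-1 8.0 region of 2800 bp, and BMP7, a bone morphogenetic protein, 2629 bp in 1 region of 2650 bp. Among the Wnt ligand genes, WNT7B had 3 long regions, each in 1 piece, and WNT4 had 2, each in several pieces. WNT1, WNT3, WNT3A, WNT5A, WNT7A and WNT11 had 1 each. WIF1, a secreted Wnt inhibitor that the tumour suppressor list also holds, had the highest CLBL-1 fold of the list, 11.8. Of 37 cadherin and protocadherin genes, 11 (29.7%) had one, with CELSR1, a planar polarity cadherin, at 3141 bp (chromosome 10, 19707858 to 19710999) in pieces of 1940 and 888 bp, and PCDH10 at 2248 bp in 1 piece of 2250 bp. Of 77 ion channel and synaptic genes 21 (27.3%) had one, and GRIK3 and GRM4, glutamate receptor genes, had 2305 and 2241 bp in 1 piece each. Counted per region, the excess was smaller. The share was 6.42% for the Wnt to TGF-beta list and 5.56% for the cadherin list, against 3.73% for all genes. CDH4 gave 7 of the 20 long regions of the cadherin list. For the ion channel and synaptic list the share per region, 4.02%, was near the 3.73% of all genes.

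B cell genes held long shared regions at a share whose interval includes that of all genes. Of 30 genes, 5 (16.7%, 7.34 to 33.6) had one, against 10.3% of all genes, with 6 of 178 CLBL-1 regions (3.37%) in the set, against 3.73%. The 6 regions measured 1674 to 3720 bp with folds from 2.75 to 6.74 in CLBL-1. All 6 carried the shore flag, and CLBL-1 8.0 held each as 1 region that covered at least 96.2%. IRF4, a transcription factor of activated B cells and plasma cells, had a region of 3720 bp over its start on chromosome 35 (757088 to 760808), with a fold of 2.75, and another of 2146 bp downstream of the gene. The CLBL-1 8.0 region at the start measured 3690 bp with a fold of 2.69 in that list. PAX5, the B cell commitment factor, had 2026 bp in an intron (chromosome 11, 53382149 to 53384175), EBF1, which acts before it, 1712 bp in an intron, and CIITA, the activator of MHC class II genes, 1674 bp of coding sequence. RAG1, the recombinase of antigen receptor genes, had 1994 bp of coding sequence (chromosome 18, 31632192 to 31634186), wholly inside a CLBL-1 8.0 region of 2137 bp.

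Of 17 T and NK cell genes, 3 (17.6%, 6.19 to 41.0) had a long shared region, an interval that includes the 10.3% of all genes. CD8A, a coreceptor of cytotoxic T cells, had 1810 bp over its start, wholly inside 1 CLBL-1 8.0 region of 1948 bp. EOMES, a T-box factor of cytotoxic cells, had 1690 bp in 1 piece, and BCL11B, the T cell commitment factor, had 2483 bp in pieces of 725 and 1321 bp and 1872 bp in 1 piece. The EOMES region is also counted with the SOX to helix-loop-helix genes.

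Among 34 tumour suppressors known for methylation, 6 (17.6%, 8.35 to 33.5) had a long shared region, against 10.3% of all genes, which the interval includes, and 4.03% of their CLBL-1 regions were in the set, against 3.73%. HIC1, a transcriptional repressor, had 2817 bp in 1 CLBL-1 8.0 region of 2737 bp, CADM1, an adhesion molecule, 2550 bp over its start in 1 of 2872 bp, and SFRP2, a secreted Wnt antagonist, 1966 bp in 1 of 1870 bp. Like WIF1, SFRP2 is also counted in the Wnt to TGF-beta list, and TP73, another of the 6, in the list of apoptosis genes. Of 22 imprinted genes, 6 (27.3%, 13.2 to 48.2) had one, against 10.3% of all genes, while per region the share was 4.32% against 3.73%. MEST and PEG10, which are expressed from the paternal allele, had 2248 and 2151 bp in 1 piece each, and PEG3 had 1509 bp over its start wholly covered. GRB10 had 2140 bp on chromosome 18 (1934004 to 1936144) in pieces of 338 and 630 bp with a gap of 1012 bp, which covered 45.2%.

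Few genes tied to the drug or to its targets had a long shared region. Of 38 genes of drug transport and anthracycline metabolism 1 had a long shared region (2.63%, 0.466 to 13.5), SLC22A4, an organic cation and ergothioneine transporter gene, with 1515 bp over its start, 99.5% covered by 1 CLBL-1 8.0 region of 1594 bp. Of 34 genes of apoptosis, topoisomerases and DNA damage 1 had one (2.94%, 0.521 to 14.9), TP73, a p53 relative, with 1952 bp downstream of the gene in pieces of 1429 and 314 bp. Per region these lists gave 0.758% and 0.735%, against 3.73% for all genes. Both lists rest on 1 region each, and both intervals include the 10.3% of all genes.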

How the data were processed

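Genomic DNA of 2 cell lines was captured with a methyl-binding domain protein in 4 libraries, 1 per line and eluate. The fold enrichment per region is a linear ratio deposited by the authors, per the file headers, whose denominator no source used here names. The location, CpG, start and promoter flags are the authors' annotation as deposited. BWA, MACS2 and CanFam3.1 are named in the submitters' processing notes, without their roles, versions or whether eluates were pooled before calling, which are not given in the sources used here. Regions labelled DMR in the tables were read as capture-enriched regions of 1 line. Long regions measured at least 1500 bp, end minus start. Regions were met by sharing at least 1 bp, and pieces are distinct CLBL-1 8.0 regions met. The tabulated distance runs from the region start to the transcription start, signed by strand. Rows with displaced cells, 6 in the CLBL-1 8.0 list and 2 in the CLBL-1 list, got no gene, and none is a long shared region. Shares carry Wilson and differences Newcombe 95% intervals (statsmodels 0.14.6). The counts of overlaps, but not the intervals, were checked on simulated region lists. Python 3.11.15, numpy 2.4.6, pandas 2.3.3 and matplotlib 3.10.9 were used. Named regions are the 10 longest, those with most pieces (ties by length), highest fold and lowest coverage, the 10 genes with most regions and up to 3 genes per list, those with the longest region; others in a list were named after their values were seen. A gene that this rule names is not reported here. The regions and the 12 gene lists were chosen with earlier results of these data known. The RefSeq annotation (UU_Cfam_GSD_1.0) served only for names and for the shares of protein coding genes. No test was run, since each group has 1 library.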

Additional observations from a re-analysis of the deposited data

How the results depend on the processing

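Of 58 recomputed values, 25 moved by less than their interval (counts by less than 1.5 times) and 33 moved further; 8 alternatives were chosen after seeing the data. A length limit of 1000 bp gave 10923 regions, with 23.0% islands, 15.8% transcription starts, 34.1% introns and 86.7% in 1 piece; 2000 bp gave 706, 37.7%, 24.9% and 67.0% for number, islands, starts and 1 piece, and 94.4% covered. With at least 50% of a region's bases required, 97.8% of long CLBL-1 regions were met. With CLBL-1 8.0 regions at or above their median fold, the values were 1257 regions, 44.7% met, 17.5% islands, 31.5% starts, 94.0% in 1 piece, 97.5% covered and a span ratio of 0.991. With CLBL-1 regions at or above theirs, they were 1242 regions, 14.3% islands, 28.2% starts, 80.5% in 1 piece, 97.4% covered and a span ratio of 1.00. Joining gave 84.8% (200 bp) and 98.7% (500 bp) in 1 piece, and the reverse direction 90.0%, with a span ratio of 0.992. Island flags on any piece gave 45.9%. Introns held 33.5% of the regions at plus-strand genes and 50.2% of those at minus-strand genes. These 2 shares leave out regions without a gene, which the reported 31.6% counts, so they are not on the same base. Without the last 5 Mb of each chromosome, islands were 26.8% and starts 26.1%. Without chromosomes 6, 12, 14 and 27 there were 2536 regions, and the 6 shares and ratios computed moved by less than their intervals. Joining CLBL-1 8.0 regions can only raise the share in 1 piece, and a fold limit on that list takes out possible pieces. The 2 strand shares differ from the reported intron share in base, but not from each other. Apart from these points, the cause of these shifts was not tested. No paired analysis was possible because a group is a single library and nothing was tested. Depth is unknown, so detection limits cannot be given.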
